A study of Neurospora crassa with 8 samples.

Results

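The RNA of mycelia labelled Δ*wc1* was compared directly with the RNA of mycelia labelled Δ*wc2*, both grown in constant light. The comparison uses 2 of the 8 samples of the series, 1 library per knockout, and asks which transcripts differ when one or the other subunit of the white collar complex is lost. Of 9733 genes in the exon counts, the 8137 with 20 or more reads in at least one of both libraries were compared. The strain labelled Δ*wc1* has the genotype {delta}wc1::hyg and the strain labelled Δ*wc2* has the genotype {delta}wc2::hyg. The *wt* library, set beside both, is of strain 74-OR23-1VA (FGSC 2489). All 3 were liquid cultures kept in light for 48 h at 25 °C, and each genotype is represented by 1 strain and 1 library. A further 4 *wt* libraries, kept dark for 24 h and then lit for 0, 30, 60 or 120 min, provided the light response of the same genes. The part of each gene that was replaced in the knockouts is not given in the sources used here.

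The white collar complex is the central photoreceptor of *Neurospora crassa* and a core element of its circadian clock. WC-1 carries a flavin-binding LOV domain that senses blue light, and both WC-1 and WC-2 carry PAS domains and a GATA-type zinc finger that binds DNA. The complex activates the clock gene *frq*, the photoreceptor gene *vvd*, which dampens the light response, and many other light-induced genes, among them those of carotenoid synthesis and asexual spore formation (conidiation). Strains that lack either protein are known as blind mutants.

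The summed exon reads were 22445139 in the library labelled Δ*wc1* and 22215526 in the library labelled Δ*wc2*, against 26210537 in *wt*. Reads were found on 9220 genes in the library labelled Δ*wc1* and on 9163 in that labelled Δ*wc2*, against 9144 in *wt*. Ratios were scaled by the median ratio of all genes with reads in both libraries, and the library labelled Δ*wc1* was larger by a factor of 1.04 on this scale. The thiamine synthesis genes *nmt-1* and NCU06110 alone took 18.9% of the reads in the library labelled Δ*wc1* and 20.5% in that labelled Δ*wc2*, against 25.7% in *wt*. No difference given here has a replicate check. Intervals are exact 95% Clopper-Pearson intervals that cover counting error only, so they compare these libraries and not the conditions.

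The targeted genes were examined first. The gene *wc-1* (NCU02356) had 1290 reads in the library labelled Δ*wc1* and 252 in the library labelled Δ*wc2*, against 332 in *wt*. The total therefore went against the label, with 4.91-fold more reads (4.29 to 5.64) in the library labelled Δ*wc1* than in that labelled Δ*wc2*. The reads were split unevenly over the 2 exon lines of the gene, which are numbered here in file order because the strand was not known. On exon line 1 the library labelled Δ*wc1* had 3 reads and the library labelled Δ*wc2* had 63, against 88 in *wt*. On exon line 2 the library labelled Δ*wc1* had 1287 reads and the library labelled Δ*wc2* had 189, against 244 in *wt*. Exon line 1 of *wc-1* was thus nearly empty in the library labelled Δ*wc1*, at 0.0457 times the level in the library labelled Δ*wc2* (0.00917 to 0.140), while exon line 2 was 6.53-fold higher (5.60 to 7.65).

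The gene *wc-2* (NCU00902) had 922 reads in the library labelled Δ*wc1* and 141 in the library labelled Δ*wc2*, against 605 in *wt*. Here the total followed the label, at a ratio of 6.27 (5.25 to 7.54). Exon line 1 of *wc-2* had 474 reads in the library labelled Δ*wc1* and 53 in that labelled Δ*wc2*, against 230 in *wt*. Exon line 2 had 320 reads in the library labelled Δ*wc1* and 3 in that labelled Δ*wc2*, against 303 in *wt*. The loss of *wc-2* reads was deepest on this line, at 0.0103 times the *wt* level (0.00212 to 0.0304). Exon line 3 had 127 and 54 reads in the libraries labelled Δ*wc1* and Δ*wc2*, against 70 in *wt*. Exon line 4 had 1 read in the library labelled Δ*wc1* and 31 in that labelled Δ*wc2*, against 2 in *wt*, so that its direction was the reverse of the others.

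**Figure D1:**
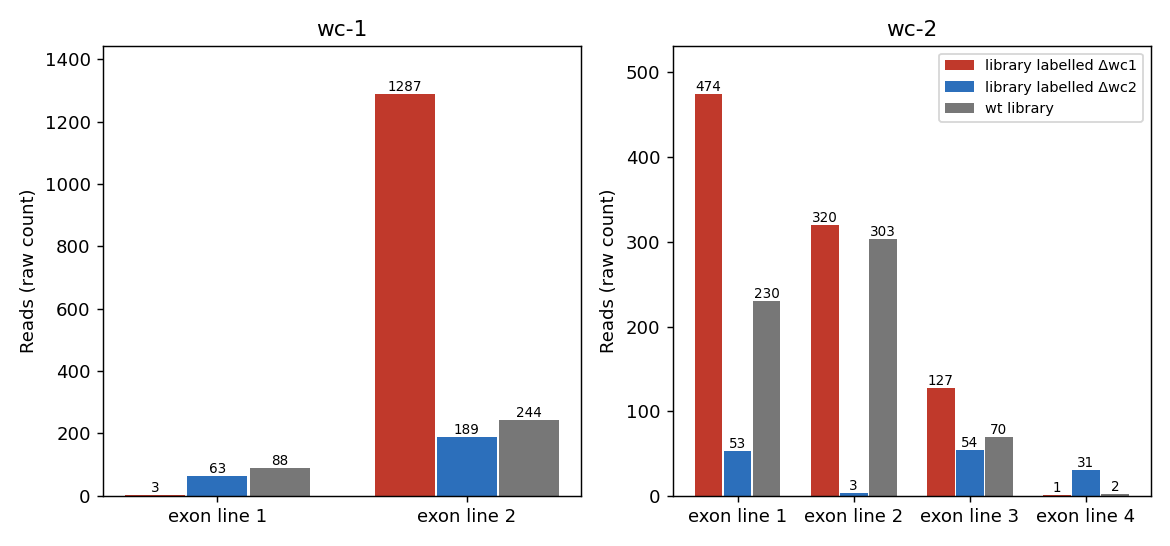
Raw reads on each exon line of *wc-1* (left) and *wc-2* (right) in the libraries labelled Δ*wc1* (red) and Δ*wc2* (blue) and in *wt* (grey), 1 library each, with the count above each bar. The library labelled Δ*wc1* has 3 reads on exon line 1 of *wc-1* and 1287 on line 2, and the library labelled Δ*wc2* has 3 reads on exon line 2 of *wc-2*.

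No other gene had exon lines that differed so much from each other between both libraries. Among 5260 genes with 2 or more exon lines of at least 20 reads, the range of the log2 ratio within a gene (0.5 reads added) was 10.91 in *wc-2*, the widest, and 6.95 in *wc-1*, the next. The median range over all these genes was 0.32 and the 99th percentile was 1.59. Each knockout library was nearly empty on an exon line of the gene in its own label. The library labelled Δ*wc1* had 3 reads on line 1 of *wc-1*, where that labelled Δ*wc2* had 63. The library labelled Δ*wc2* had 3 reads on line 2 of *wc-2*, where that labelled Δ*wc1* had 320. Because the *wc-1* total went against the label, the libraries are called by their labels throughout, and every direction given below rests on those labels.

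Genes next to the targeted loci were examined in the gene order of the RefSeq annotation. Of the 20 genes nearest to *wc-1*, 19 were compared and 0 differed 2-fold, where 7.29% of all genes compared did. The closest to that limit was NCU02355, a direct neighbor of *wc-1*, with 352 reads in the library labelled Δ*wc1* and 173 in that labelled Δ*wc2*, against 250 in *wt* (log2 0.96). Of the 20 genes nearest to *wc-2*, 19 were compared, and 1 was higher and 2 were lower in the library labelled Δ*wc1*. Of all genes compared, 5.22% were higher and 2.06% were lower. The higher gene, NCU00915, lay 10 genes away, with 16046 and 6469 reads in the libraries labelled Δ*wc1* and Δ*wc2*, against 5504 in *wt*. NCU00903, a direct neighbor of *wc-2*, had 9230 reads in the library labelled Δ*wc1* and 31694 in that labelled Δ*wc2*, against 13485 in *wt*. Next to it, NCU00904 had 1432 and 2854 reads in the libraries labelled Δ*wc1* and Δ*wc2*, against 1747 in *wt*. On the other side of *wc-2*, the DNA repair gene *uvs-6* had 205 and 364 reads in the libraries labelled Δ*wc1* and Δ*wc2*, against 268 in *wt* (log2 -0.89). At the *wc-2* locus, both direct neighbors thus had their highest count in the library labelled Δ*wc2*.

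Over all 8137 genes, 593 (7.29%) differed 2-fold or more between both knockout libraries. Of these, 425 (5.22%) were higher and 168 (2.06%) were lower in the library labelled Δ*wc1*. The quartiles of the log2 ratio were -0.28 and 0.33, the median was -0.004, and 48 genes were 4-fold or more higher and 21 were 4-fold or more lower in the library labelled Δ*wc1*. The whole interval lay beyond 2-fold for 278 genes (3.42%), with 206 (2.53%) higher and 72 (0.885%) lower. Of the 593 genes, 172 had under 100 reads in the library with more reads. At the minimum itself, 40 genes had exactly 20 reads in the higher library and were compared, and 25 genes had exactly 19 and were not. In whole mycelia, a change in RNA per cell cannot be told apart from a change in the number of cells of a kind.

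**Figure D2:**
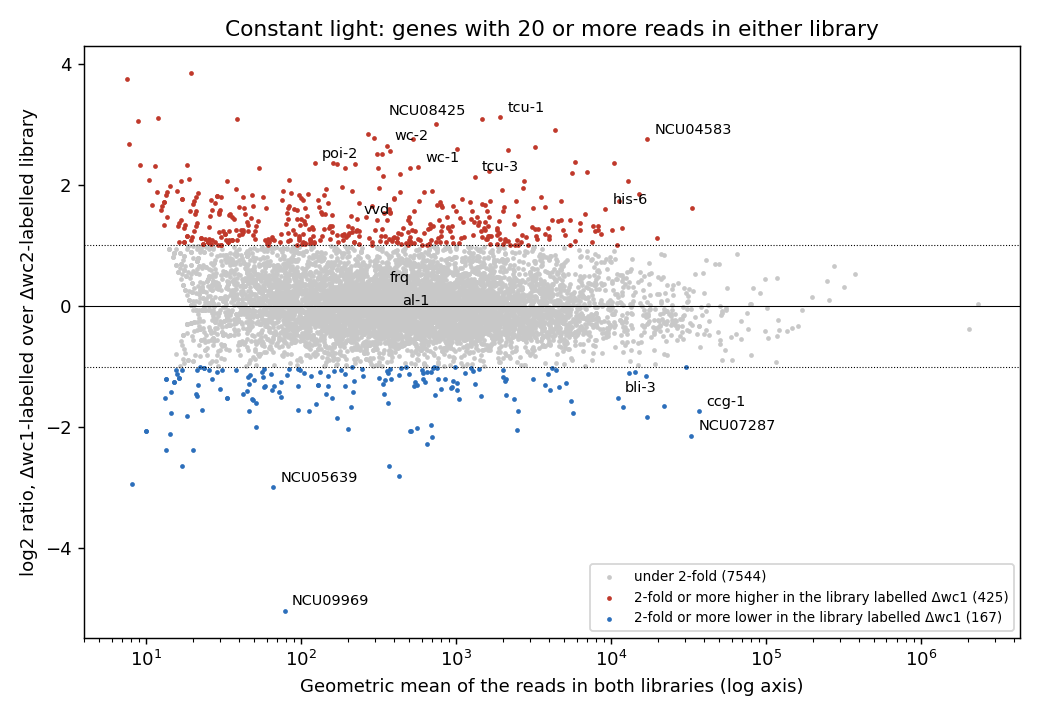
The log2 ratio of the library labelled Δ*wc1* over the library labelled Δ*wc2* (vertical axis) against the geometric mean of the raw reads in both (horizontal log axis), 1 point per gene, with dotted lines at 2-fold. Of the genes beyond the lines, 425 are higher (red) and 167 lower (blue), and 1 further lower gene, NCU09968, has 0 reads in the library labelled Δ*wc1* and is not drawn.

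Among genes with a symbol and 100 or more reads, a copper transporter gene had the largest ratio in favor of the library labelled Δ*wc1*. The copper transporter gene *tcu-1* had 5815 reads in the library labelled Δ*wc1* and 642 in the library labelled Δ*wc2*, against 11417 in *wt*. Its level was 8.69-fold higher (8.01 to 9.44) in the library labelled Δ*wc1*, and both were below *wt*, by log2 ratios of -0.97 in the library labelled Δ*wc1* and -4.09 in that labelled Δ*wc2*. A second member of this transporter family, *tcu-3*, had 2836 and 618 reads in the libraries labelled Δ*wc1* and Δ*wc2*, against 3447 in *wt* (4.40-fold, 4.03 to 4.81). The third, *tcu-2*, had 3613 and 2806 reads in the libraries labelled Δ*wc1* and Δ*wc2*, against 10256 in *wt*, and did not reach 2-fold. Of these 3 copper transport genes, a list drawn up after their values were seen, 2 were higher in the library labelled Δ*wc1*, where 5.22% of all genes were.

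The same order of the 3 libraries was seen in NCU00829, a direct neighbor of *tcu-1*. It had 12247 reads in the library labelled Δ*wc1* and 1565 in that labelled Δ*wc2*, against 19513 in *wt* (7.51-fold, 7.12 to 7.92). NCU08193, at another locus, had 8183 and 1277 reads in the libraries labelled Δ*wc1* and Δ*wc2*, against 16911 in *wt* (6.15-fold). In all of *tcu-1*, *tcu-3*, NCU00829 and NCU08193, the library labelled Δ*wc2* was the one that lay farther below *wt*.

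Most other genes with the largest ratios were highest of the 3 libraries in that labelled Δ*wc1*. NCU08425 had 4403 reads in the library labelled Δ*wc1* and 494 in that labelled Δ*wc2*, against 319 in *wt* (8.55-fold). NCU06376 had 2147 and 257 reads in the libraries labelled Δ*wc1* and Δ*wc2*, against 96 in *wt* (8.01-fold). The most abundant gene of this group, NCU04583, had 45461 reads in the library labelled Δ*wc1* and 6444 in that labelled Δ*wc2*, against 1474 in *wt* (6.77-fold, 6.59 to 6.95). Both knockout libraries thus lay above *wt* for NCU04583, by log2 ratios of 4.95 in the library labelled Δ*wc1* and 2.19 in that labelled Δ*wc2*. NCU01380 had 740 and 99 reads in the libraries labelled Δ*wc1* and Δ*wc2*, against 201 in *wt*. NCU04879 had 797 and 111 reads in the libraries labelled Δ*wc1* and Δ*wc2*, against 382 in *wt*. For these last genes the *wt* count lay between the knockouts.

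The constant light libraries carry no strand, and 2 of the genes with the largest ratios were covered mainly by antisense reads in the strand-specific *wt* libraries. NCU11684 had 1410 and 200 reads in the libraries labelled Δ*wc1* and Δ*wc2*, against 243 in *wt*, and 100% of its strand-specific reads were antisense. NCU11949 had 5364 and 865 reads in the libraries labelled Δ*wc1* and Δ*wc2*, against 702 in *wt*, and 86.1% of its strand-specific reads were antisense. Which strand these differences belong to cannot be told from the counts.

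Other genes with a symbol that were higher in the library labelled Δ*wc1* had varied functions. The gene *poi-2*, known from female sexual development, had 283 reads in the library labelled Δ*wc1* and 53 in that labelled Δ*wc2*, against 26 in *wt* (5.12-fold, 3.81 to 7.00). The autophagy kinase gene *apg-1* had 1222 and 317 reads in the libraries labelled Δ*wc1* and Δ*wc2*, against 449 in *wt* (3.70-fold). Its direct neighbor *mig-11* went the other way, with 363 and 859 reads in the libraries labelled Δ*wc1* and Δ*wc2*, against 1269 in *wt*. The poly(ADP-ribose) polymerase gene *parp* had 272 and 73 reads in the libraries labelled Δ*wc1* and Δ*wc2*, against 84 in *wt* (3.57-fold). The G protein-coupled receptor gene *gpr-6* had 1474 and 453 reads in the libraries labelled Δ*wc1* and Δ*wc2*, against 207 in *wt* (3.12-fold). The regulator gene *acu-15*, which activates acetate utilization, had 3941 and 997 reads in the libraries labelled Δ*wc1* and Δ*wc2*, against 688 in *wt* (3.79-fold). For *acu-15* this rested on exon line 1 alone, with 3826 and 861 reads in the libraries labelled Δ*wc1* and Δ*wc2*, while its other exon lines, with 45 and 45 and with 70 and 91 reads in the same libraries, did not share the direction. Of the 50 named genes with an interval beyond 2-fold, 47 had every exon line of 20 or more reads in the direction of the gene, and the exceptions were *wc-1*, *wc-2* and *acu-15*.

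**Figure D3:**
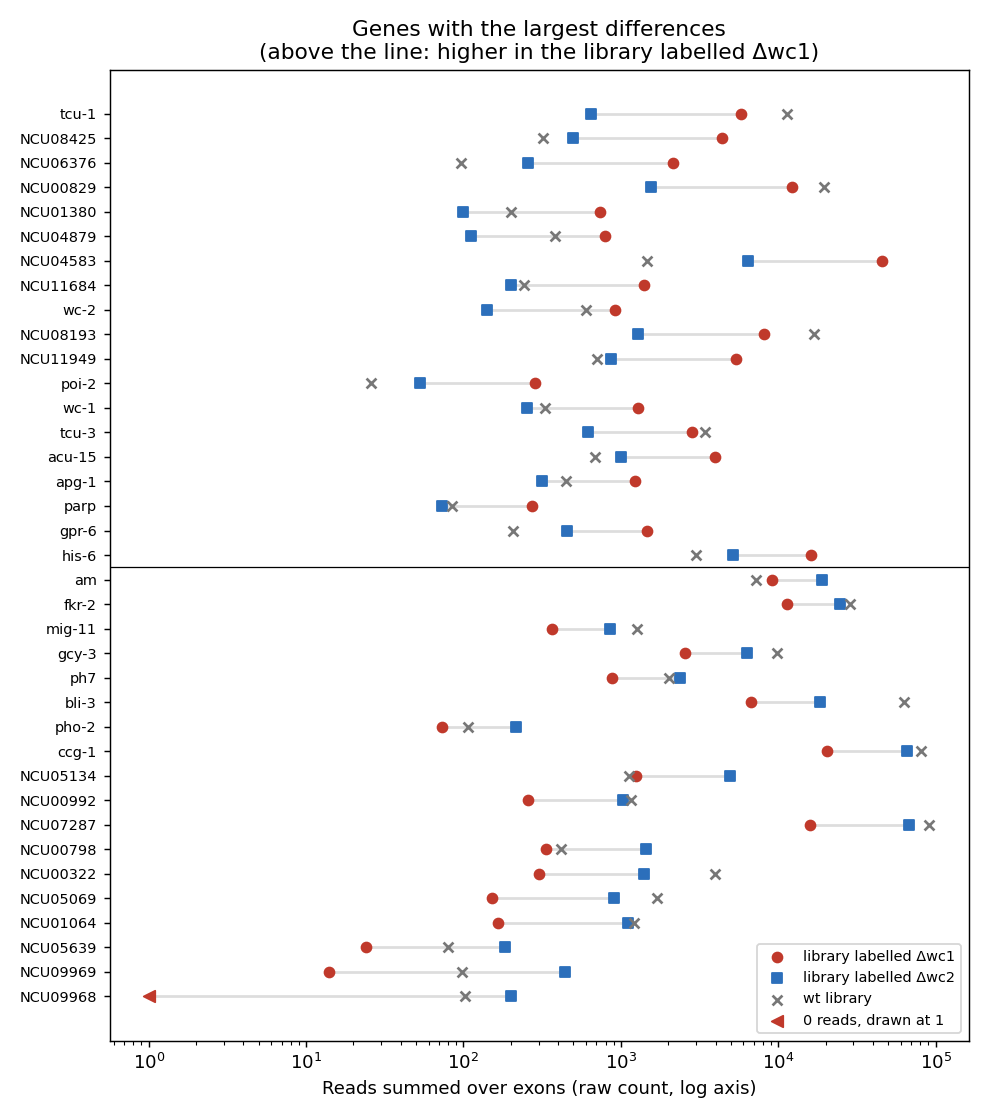
Raw reads (log axis) of the genes with the largest differences in the libraries labelled Δ*wc1* (red circles) and Δ*wc2* (blue squares) and in *wt* (grey crosses), 1 library each. Genes above the horizontal line are higher and genes below it lower in the library labelled Δ*wc1*. The crosses of *tcu-1*, NCU00829, NCU08193 and *tcu-3* lie to the right of both knockouts, while those of NCU08425, NCU06376 and NCU04583 lie to the left.

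The genes lower in the library labelled Δ*wc1* were led by a pair of neighbors. NCU09968 had 0 reads in the library labelled Δ*wc1* and 200 in the library labelled Δ*wc2*, against 102 in *wt*, a ratio of 0 whose interval reaches 0.0179. Set against a floor of 3 reads it was at least 69.5-fold lower, and by the bound of the exact interval at least 56.0-fold lower. NCU09969 had 14 and 440 reads in the libraries labelled Δ*wc1* and Δ*wc2*, against 98 in *wt*, a ratio of 0.0305 (0.0165 to 0.0518). For both, *wt* lay between the knockouts, and NCU09968 was transcribed in each of the light series libraries of *wt*, with 545 to 1064 sense reads. Of the strand-specific reads on NCU09969, 60.6% were antisense.

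Several of the lower genes were light-induced in *wt*. NCU05639 had 24 reads in the library labelled Δ*wc1* and 183 in that labelled Δ*wc2*, against 80 in *wt* (ratio 0.126), and its log2 change after 120 min of light was 1.68. NCU01064 had 165 and 1113 reads in the libraries labelled Δ*wc1* and Δ*wc2*, against 1216 in *wt* (ratio 0.142). In the light series, NCU01064 was above the dark level by a log2 change of 2.50 at 60 min. NCU05069 had 151 and 909 reads in the libraries labelled Δ*wc1* and Δ*wc2*, against 1697 in *wt* (ratio 0.159), and its log2 change at 60 min was 1.99. For NCU01064 the count in the library labelled Δ*wc2* was close to *wt*, with a log2 ratio of -0.07 over *wt*, whereas the library labelled Δ*wc1* was at -2.88. Light induction was not particular to the lower genes. Among the higher genes, NCU04583 and NCU08425 had log2 changes of 2.04 and 1.68 at 60 min in *wt*, whereas *tcu-1* was at -1.22.

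Other lower genes did not share the light response. NCU00322 had 302 and 1411 reads in the libraries labelled Δ*wc1* and Δ*wc2*, against 3982 in *wt* (ratio 0.205). NCU07287, one of the most abundant, had 16018 and 67804 reads in the libraries labelled Δ*wc1* and Δ*wc2*, against 91447 in *wt* (ratio 0.227, 0.223 to 0.231). In the light series NCU07287 was below the dark level, by a log2 change of -1.46 at 120 min. NCU00992 had 257 and 1029 reads in the libraries labelled Δ*wc1* and Δ*wc2*, against 1158 in *wt*. The pattern of NCU05134 was different, with 1248 and 4935 reads in the libraries labelled Δ*wc1* and Δ*wc2*, against 1132 in *wt*, so that only the library labelled Δ*wc2* departed from *wt*. NCU00798 likewise had 337 and 1449 reads in the libraries labelled Δ*wc1* and Δ*wc2*, against 415 in *wt*, with 47.6% antisense reads in the strand-specific libraries.

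Among the lower genes with a symbol were 2 classical outputs of light and clock. The clock-controlled gene *ccg-1*, which is also repressed by glucose, had 20544 reads in the library labelled Δ*wc1* and 65758 in that labelled Δ*wc2*, against 80919 in *wt* (ratio 0.300, 0.295 to 0.304). The blue-light-induced gene *bli-3* had 6678 and 18329 reads in the libraries labelled Δ*wc1* and Δ*wc2*, against 63212 in *wt* (ratio 0.349, 0.340 to 0.359). Both knockout libraries were below *wt* for *bli-3*, at log2 ratios of -3.24 in the library labelled Δ*wc1* and -1.73 in that labelled Δ*wc2*. In *wt*, *bli-3* was the more strongly light-induced of the pair, with a log2 change of 3.77 at 60 min, against 0.51 for *ccg-1*. The alkaline phosphatase gene *pho-2* had 73 and 216 reads in the libraries labelled Δ*wc1* and Δ*wc2*, against 107 in *wt* (ratio 0.324). The glutamate dehydrogenase gene *am* had 9155 and 18926 reads in the libraries labelled Δ*wc1* and Δ*wc2*, against 7210 in *wt* (ratio 0.464). The remaining genes with a symbol whose interval lay below 2-fold were *ph7*, *gcy-3* and *fkr-2*, with ratios of 0.357, 0.382 and 0.447.

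The direct outputs of the white collar complex were next set side by side. The photoreceptor gene *vvd* had 384 reads in the library labelled Δ*wc1* and 136 in that labelled Δ*wc2*, against 12684 in *wt*. It was thus 2.71-fold higher (2.22 to 3.32) in the library labelled Δ*wc1*, with log2 ratios over *wt* of -5.05 in the library labelled Δ*wc1* and -6.48 in that labelled Δ*wc2*. The clock gene *frq* had 382 and 295 reads in the libraries labelled Δ*wc1* and Δ*wc2*, against 1632 in *wt*, a ratio of 1.24 (1.06 to 1.45). Of the strand-specific reads on *frq*, 42.1% were antisense, so that its unstranded counts hold reads of both strands. Apart from *wc-1*, *wc-2* and *vvd*, no gene of the white collar and clock list (9 compared) differed 2-fold, where 7.29% of all genes did. The FRQ-interacting RNA helicase gene *frh* had 406 and 359 reads in the libraries labelled Δ*wc1* and Δ*wc2*, against 267 in *wt*. The light-induced transcription factor gene *sub-1* had 318 and 266 reads in the libraries labelled Δ*wc1* and Δ*wc2*, against 128 in *wt*.

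None of the 5 photoreceptor and photolyase genes compared differed 2-fold between both knockout libraries, where 7.29% of all genes did. The cryptochrome gene *cry* had 116 and 85 reads in the libraries labelled Δ*wc1* and Δ*wc2*, against 3016 in *wt*, a ratio of 1.31 (0.981 to 1.75). The photolyase gene *phr* had 185 and 203 reads in the libraries labelled Δ*wc1* and Δ*wc2*, against 794 in *wt*. The opsin gene *nop-1* had 26 and 30 reads in the libraries labelled Δ*wc1* and Δ*wc2*, against 275 in *wt*. These 3 genes were below *wt* in both libraries and less than 2-fold apart from each other, with an interval as wide as 0.472 to 1.45 for *nop-1*.

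Of the 6 carotenoid synthesis genes, 0 differed 2-fold, where 7.29% of all genes did. Their median log2 ratio was 0.11, beside -0.004 over all genes. The phytoene desaturase gene *al-1* had 401 reads in the library labelled Δ*wc1* and 405 in that labelled Δ*wc2*, against 4891 in *wt*. Its ratio was 0.950, with an interval of 0.825 to 1.09. The phytoene synthase gene *al-2* had 5716 and 4994 reads in the libraries labelled Δ*wc1* and Δ*wc2*, against 16701 in *wt* (ratio 1.10, 1.06 to 1.14). The gene *al-3*, for geranylgeranyl diphosphate synthase, had 418 and 296 reads in the libraries labelled Δ*wc1* and Δ*wc2*, against 403 in *wt* (ratio 1.35, 1.16 to 1.58).

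Of the 10 conidiation genes compared, 2 were higher in the library labelled Δ*wc1* and 0 were lower, beside 5.22% higher and 2.06% lower over all genes. The conidiation gene *fld* had 2276 reads in the library labelled Δ*wc1* and 925 in that labelled Δ*wc2*, against 1191 in *wt* (2.36-fold). The regulator gene *acon-3* had 35 and 8 reads in the libraries labelled Δ*wc1* and Δ*wc2*, against 8 in *wt*, with a wide interval (1.91 to 10.5). The other 8 did not reach 2-fold, 4 with a ratio above 1 and 4 below. The hydrophobin gene *eas* had 2035 and 3840 reads in the libraries labelled Δ*wc1* and Δ*wc2*, against 159799 in *wt* (ratio 0.508, 0.481 to 0.537). The gene *con-8* had 306 and 454 reads in the libraries labelled Δ*wc1* and Δ*wc2*, against 42642 in *wt*. The gene *con-10* had 67 and 102 reads in the libraries labelled Δ*wc1* and Δ*wc2*, against 1435 in *wt*. The gene *con-6* had 61 and 47 reads in the libraries labelled Δ*wc1* and Δ*wc2*, against 168 in *wt*. All 6 conidiation markers (*con-6*, *con-8*, *con-10*, *con-13*, *eas* and *fl*) had their highest count in *wt*, with sums of 2813 and 4831 reads in the libraries labelled Δ*wc1* and Δ*wc2*, against 204657 in *wt*. Their part in the ratios to *wt* was not tested.

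Among 12 clock-controlled and blue-light genes, 1 was higher and 2 were lower, beside 5.22% higher and 2.06% lower over all genes. The higher gene was *ccg-9*, for trehalose synthase, with 254 and 98 reads in the libraries labelled Δ*wc1* and Δ*wc2*, against 113 in *wt*, and the lower genes were *ccg-1* and *bli-3*. Below 2-fold, *ccg-16* had 86364 and 157877 reads in the libraries labelled Δ*wc1* and Δ*wc2*, against 197717 in *wt* (ratio 0.525). The gene *bli-4* had 104 and 139 reads in the libraries labelled Δ*wc1* and Δ*wc2*, against 4973 in *wt*. Of the mating type and pheromone genes, *matA-1* had 0 reads in the libraries labelled Δ*wc1* and Δ*wc2*, against 20 in *wt*. The labels do not give the mating type of the knockout strains, and a strain of the other mating type has no *matA-1*. Whether this applies here was not tested, and *matA-2* and *matA-3* had 0 reads in *wt* as well. The pheromone receptor gene *pre-1*, the only one with enough reads to compare, had 90 and 71 reads in the libraries labelled Δ*wc1* and Δ*wc2*, against 199 in *wt*. Of 4 sexual tissue markers compared, *poi-2* alone differed (7.29% over all genes), while *asd-1* had 4570 and 5297 reads in the libraries labelled Δ*wc1* and Δ*wc2*, against 11102 in *wt*. The reads of the 6 sexual markers in the files summed to 5021 and 5486 in the libraries labelled Δ*wc1* and Δ*wc2*, against 11568 in *wt*.

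Genes of amino acid and purine synthesis were among those higher in the library labelled Δ*wc1*, and these lists were drawn up after the values were seen. Of 52 amino acid genes, 6 (11.5%) were higher and 0 were lower, with a median log2 ratio of 0.31, and 36 of them had a ratio above 1. Over all 8137 genes, 5.22% were higher, 2.06% were lower and 4036 had a ratio above 1. The histidine synthesis gene *his-6* had 16254 reads in the library labelled Δ*wc1* and 5161 in that labelled Δ*wc2*, against 3022 in *wt* (3.02-fold, 2.93 to 3.12). The acetylornithine transaminase gene *arg-5* had 7571 and 2731 reads in the libraries labelled Δ*wc1* and Δ*wc2*, against 2422 in *wt* (2.66-fold). The ornithine carbamoyltransferase gene *arg-12* had 6295 and 2467 reads in the libraries labelled Δ*wc1* and Δ*wc2*, against 1373 in *wt* (2.45-fold). The kinase gene *cpc-3*, which acts in the general control of amino acid synthesis, had 2419 and 967 reads in the libraries labelled Δ*wc1* and Δ*wc2*, against 906 in *wt* (2.40-fold). By contrast, *cpc-1*, the transcription factor of this control, had 18051 and 17887 reads in the libraries labelled Δ*wc1* and Δ*wc2*, against 17762 in *wt*. The tryptophan synthase gene *trp-3* and the arginine synthesis gene *arg-4* were 2.29-fold and 2.02-fold higher. A ratio below 1 was found for 16 of the 52 genes. The lowest was *leu-2*, just short of the limit, with 1999 and 3765 reads in the libraries labelled Δ*wc1* and Δ*wc2*, against 919 in *wt* (ratio 0.509). Next came *ilv-5*, with a ratio of 0.564. Compared with *wt*, 23 of the 52 genes were 2-fold higher in the library labelled Δ*wc1* (10.5% over all genes), and 9 were in that labelled Δ*wc2* (7.43% over all genes).

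Of the 6 purine synthesis genes, 2 were higher (5.22% over all genes), and *ad-4*, *ad-7* and *ad-9* had ratios of 0.918, 0.892 and 0.963. The gene *gua-3* had 11119 and 5108 reads in the libraries labelled Δ*wc1* and Δ*wc2*, against 3672 in *wt* (2.09-fold). The gene *ad-5* had 3893 and 1786 reads in the libraries labelled Δ*wc1* and Δ*wc2*, against 982 in *wt*. Just below the limit, *ad-8* had 8745 and 4395 reads in the libraries labelled Δ*wc1* and Δ*wc2*, against 3670 in *wt*.

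The mitochondrial respiratory chain showed small ratios in the other direction. None of its 34 genes differed 2-fold, where 7.29% of all genes did. Of the 34, 30 had a ratio below 1, with a median log2 ratio of -0.24, while 4101 of all 8137 genes had a ratio below 1. The complex I gene *nuo20.1* was lowest, with 6883 and 11251 reads in the libraries labelled Δ*wc1* and Δ*wc2*, against 13555 in *wt* (ratio 0.587). The cytochrome c gene *cyc-1* had 21081 and 28055 reads in the libraries labelled Δ*wc1* and Δ*wc2*, against 4097 in *wt* (ratio 0.721).

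Of 63 glycoside hydrolase genes compared, 5 (7.94%) were higher and 0 were lower, beside 5.22% higher over all genes. The gene *gh61-9* had 2887 and 1157 reads in the libraries labelled Δ*wc1* and Δ*wc2*, against 163 in *wt* (2.39-fold). The gene *gh7-1* had 241 and 69 reads in the libraries labelled Δ*wc1* and Δ*wc2*, against 53 in *wt* (3.35-fold). The others were *gh18-8*, *gh3-4* and *gh61-10*, of which *gh61-10* was covered only by antisense reads in the strand-specific libraries. Among 9 nitrogen genes and 9 phosphate and sulfur genes, *am* and *pho-2* were the ones that differed 2-fold. No gene differed 2-fold among 11 heat shock genes, 11 genes of oxidative stress and alternative respiration, 7 RNA silencing genes, 5 heterokaryon incompatibility genes, 3 end-joining genes and 2 thiamine genes. With 7.29% of all genes 2-fold different, a count of 0 is unremarkable in lists this short. Closest to the limit was *nor-1*, a regulator of NADPH oxidases, with 2663 and 1295 reads in the libraries labelled Δ*wc1* and Δ*wc2*, against 1296 in *wt* (log2 0.98). The catalase gene *cat-2* was near the lower limit, with 933 and 1748 reads in the libraries labelled Δ*wc1* and Δ*wc2*, against 5614 in *wt* (log2 -0.97). The Dicer gene *dcl-1* had 1078 and 534 reads in the libraries labelled Δ*wc1* and Δ*wc2*, against 758 in *wt* (log2 0.95).

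**Figure D4:**
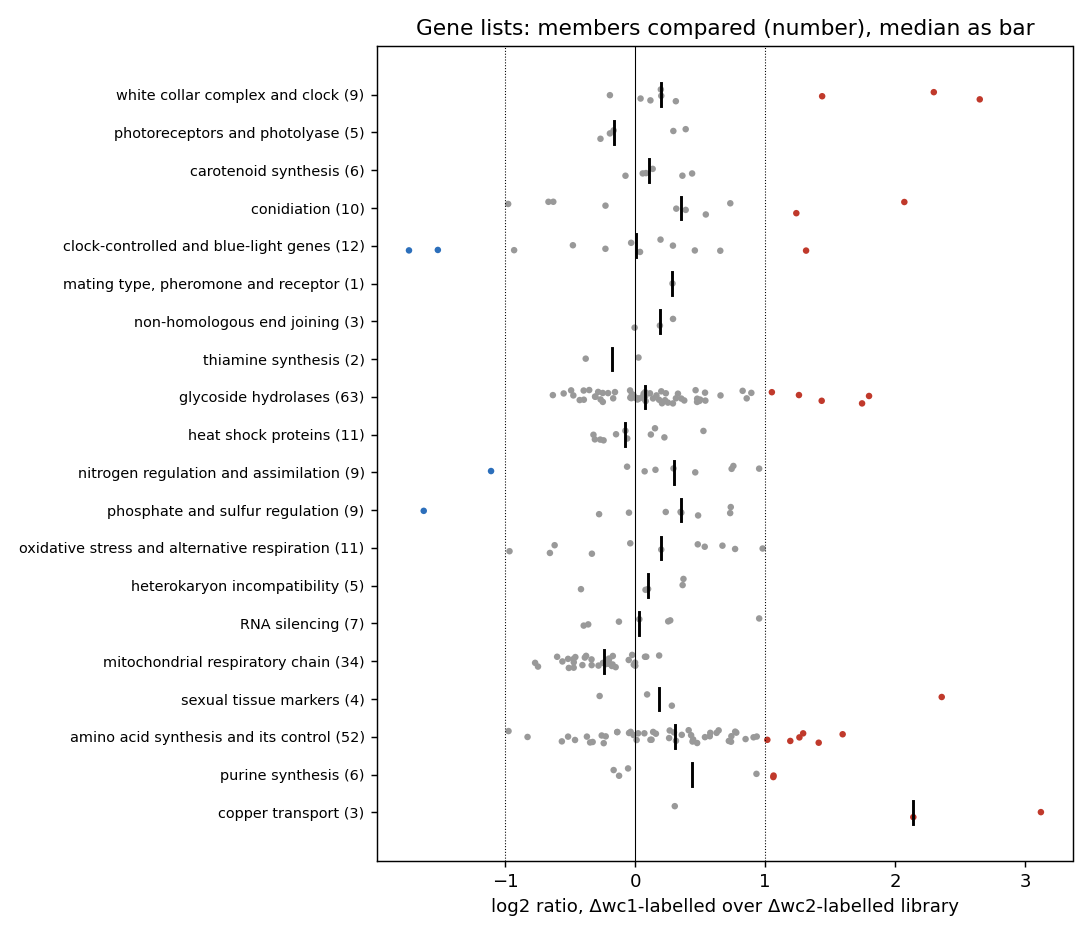
The log2 ratio of the library labelled Δ*wc1* over the library labelled Δ*wc2* for each compared member of the 20 gene lists (number of members in parentheses), with the median of each list as a black bar and 2-fold as dotted lines. Red points are 2-fold higher and blue points 2-fold lower in the library labelled Δ*wc1*. The respiratory chain lies mostly left of 0 and the amino acid genes mostly right of it.

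Where both knockouts were set beside *wt*, the 425 higher genes fell into several patterns. Both ratios share the *wt* library and are given as a description. The genes were chosen by the ratio between the same knockout libraries. That choice by itself raises the share of patterns in which the knockouts part, so the shares over all genes do not measure an excess. In 196 of the 425 (46.1%) the library labelled Δ*wc1* was 2-fold above *wt* and the library labelled Δ*wc2* was within 2-fold of it, which held for 442 (5.43%) of all 8137 genes. In 72 (16.9%), as for *tcu-3*, the library labelled Δ*wc1* was within 2-fold of *wt* and the library labelled Δ*wc2* was below it, which held for 249 (3.06%) of all. Irrespective of the other knockout, 10.2% of genes were below *wt* in the library labelled Δ*wc1* and 10.3% in that labelled Δ*wc2*. A further 50 were above *wt* in both, as NCU04583 was, and 87 were within 2-fold of *wt* in both. Of all genes, 431 (5.30%) were above *wt* in both and 6077 (74.7%) were within 2-fold of it in both. Of the 168 lower genes, 55 (32.7%) were below *wt* in both, as *bli-3* was, and 52 (31.0%) were below *wt* only in the library labelled Δ*wc1*, as *ccg-1* was. Over all genes these patterns held for 485 (5.96%) and 259 (3.18%). Another 23 were above *wt* only in the library labelled Δ*wc2*, as NCU05134 was, which held for 187 (2.30%) of all.

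The light response of these genes came from libraries that played no part in choosing them. Of the 168 genes lower in the library labelled Δ*wc1*, 53 (31.5%) were more than 2-fold above the dark level in *wt* at 30, 60 or 120 min of light. Of the 425 higher genes, 70 (16.5%) were, and over all 8137 genes 749 (9.20%) were. Light-repressed genes made up 14.3% of the lower genes, 10.8% of the higher genes and 7.10% of all genes. Among genes with an interval beyond 2-fold, 31 of 72 lower genes (43.1%) and 44 of 206 higher genes (21.4%) were light-induced. Light-repressed genes were about equal there, at 8 of the 72 lower genes (11.1%) and 23 of the 206 higher genes (11.2%). The genes *bli-3* and NCU01064 are examples of the lower ones, and *vvd*, with a log2 change of 6.99 at 30 min, is an example of the higher ones. No test was made of these shares, since genes are not replicates.

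**Figure D5:**
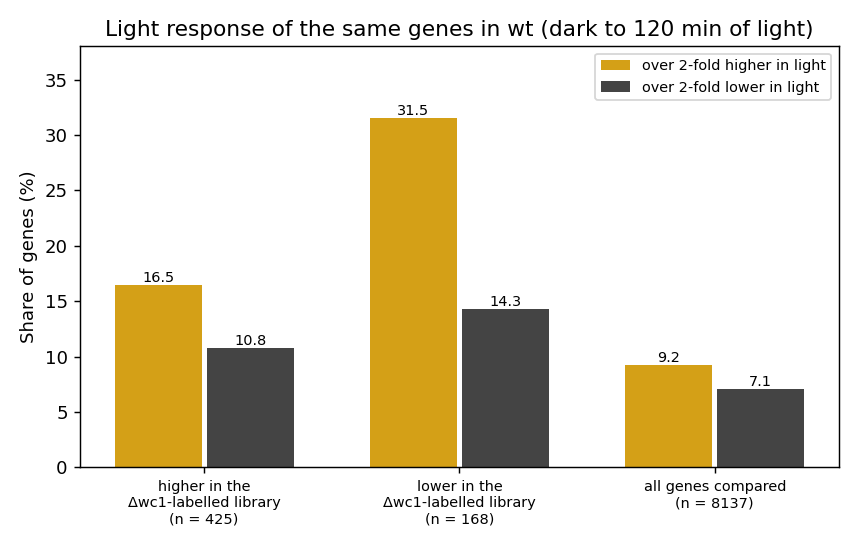
Share of genes (percent) that were more than 2-fold higher (gold) or lower (dark grey) than the dark level in *wt* at 30, 60 or 120 min of light, for the genes higher and lower in the library labelled Δ*wc1* than in that labelled Δ*wc2* and for all genes compared. The light-induced share is 31.5% of the lower genes, 16.5% of the higher genes and 9.20% of all.

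Some of the genes lay next to each other. Of 548 genes that differed and have a place in the RefSeq order, 120 had a compared neighbor that differed in the same direction, and 6 runs of 3 or more held 20 genes, all higher in the library labelled Δ*wc1*. Only in the run of NCU11365, NCU11364 and NCU11363 did every gene have an interval beyond 2-fold. In each other run the interval of 1 or more genes reached below 2-fold, as for NCU04691 (1.56 to 14.3). Neighbors and runs were taken over compared genes, so genes that were not compared can lie between their members. Among directly adjacent genes, 67 pairs had both genes different, 54 in the same direction and 13 in opposite directions. The pair of NCU00903 and the targeted gene *wc-2* is among the 13. Of the genes that differed, 71.7% were higher, which by itself makes pairs in the same direction the commoner kind. The share over all adjacent pairs was not counted, so these counts do not measure an excess. Over all genes, 5.22% were higher and 2.06% were lower. These are shares per gene, whereas most genes have a neighbor on each side, so they are not the shares to expect for neighbors. At these shares, runs of higher genes are also likelier than runs of lower ones. In the first of the 6 runs, NCU11365 had 15333 and 3169 reads in the libraries labelled Δ*wc1* and Δ*wc2*, against 1550 in *wt*. Its neighbor NCU11364 had 2554 and 406 reads in the libraries labelled Δ*wc1* and Δ*wc2*, against 320 in *wt*. The third gene, NCU11363, had 926 and 150 reads in the libraries labelled Δ*wc1* and Δ*wc2*, against 103 in *wt*. In the strand-specific libraries 96.8% of the reads on NCU11364 were antisense, so that reads of a neighbor and of NCU11364 itself cannot be told apart. Another run held the polyketide synthase gene *pks-4*, NCU08398 and NCU08397, of which NCU08397 had 5724 and 1312 reads in the libraries labelled Δ*wc1* and Δ*wc2*, against 1999 in *wt*. Of the strand-specific reads on NCU08398, 67.3% were antisense, so the strand of its difference cannot be told. The run of NCU05570, NCU05569 and NCU05567 ended in a light-induced gene, and NCU05569 and NCU05567 were not directly adjacent. NCU05567 had 750 and 126 reads in the libraries labelled Δ*wc1* and Δ*wc2*, against 2425 in *wt*, and a log2 change of 5.24 after 120 min of light. The longest runs had 4 genes, 1 around *gh7-1* and 1 that ended in *gua-3*. In the run around *gh7-1*, that gene and NCU05054 were not directly adjacent.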

How the data were processed

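Raw read counts per exon line were deposited for the 3 cultures kept in constant light, made from standard Illumina libraries. Their mapping, genome build and counting are not given in the sources used here. For the light series (directional libraries), the authors mapped reads to NC10 with Bowtie 2.1.0 and deposited sense and antisense counts per gene from HTSeq.

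Exon counts were summed per gene (26619 lines, 9733 genes). The ratio was taken after median-of-ratios scaling over 9052 genes with reads in both libraries, for genes with 20 or more reads in either, and a gene differed when the ratio reached 2-fold. No test was run, since there is 1 library per group. Intervals are exact (Clopper-Pearson, 95%). Ratios and intervals kept a count of 0 as it was. A floor of 3 reads served only for the at-least fold given for NCU09968. This floor is 0.134, 0.135 and 0.114 CPM in the libraries labelled Δ*wc1* and Δ*wc2* and in *wt*. A gene was light-induced or light-repressed with over 2-fold change in sense counts and 10 or more reads in the higher library.

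Named genes were *wc-1*, *wc-2*, *frq* and *vvd*, the 10 genes in each direction with the bound nearest to no change that was largest (100 or more reads, interval beyond 2-fold), the same among genes with a symbol, list members that differed, light, clock, carotenoid, conidiation and mating genes, and runs of neighbors. Outside this rule, the text names genes beside the targeted loci, list members near the limit or set beside a named gene, and members of the added lists, all chosen after their values were seen. Members and lists were chosen with earlier results of these data known, and the amino acid, purine and copper lists were added after values were seen. Symbols and gene order came from RefSeq (assembly NC12), which holds 9215 genes (94.7%), 1113 with a symbol. Lists defined by product names were not used. The procedure was tested on simulated data. Python 3.11.15, numpy 2.4.6, pandas 2.3.3, scipy 1.17.1 and edgeR 4.0.16 (TMM factors) were used. Alternatives concerned scaling, the minimum count, a pseudocount, the interval, the exon lines and the light series.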

Additional observations from a re-analysis of the deposited data

Results flagged for a closer look

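NCU09969 departed from *wt* in opposite directions in both knockout libraries. Its log2 ratio over *wt* was -2.81 in the library labelled Δ*wc1* and 2.23 in the library labelled Δ*wc2*. Among the compared genes, 1 had both intervals beyond 2-fold of *wt* in opposite directions, and it was this gene. Both ratios share the *wt* library, each rests on 1 library, and the difference was not tested.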

How the results depend on the processing

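Without a minimum count, 1167 genes differed 2-fold, 757 higher and 410 lower in the library labelled Δ*wc1*, and fewer counts stood behind the added genes. With the whole interval beyond 2-fold, 278 genes did, 206 higher and 72 lower. Under all other alternatives the number stayed between 421 and 692. The share of higher genes was 71.7% and ranged from 64.9% to 75.9%. Scaling by summed exon counts moved the median of all genes by 0.05 on the log2 scale. All 297 values of named genes under 3 other scalings stayed on their side of 2-fold, as did 58 of 60 list counts, the exception being the oxidative stress list (1 gene in place of 0 under 2 scalings). With the exon line of most reads in place of the sum, an alternative chosen after seeing the data, 599 genes differed. No paired analysis was possible because each group has 1 library, and for the same reason no library could be left out. The promoter motif alternatives and the count of distinct exon intervals were not run. Low counts widened intervals, as for *acon-3* (1.91 to 10.5).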
